A study of Mus musculus with 28 samples.

Results

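Genes for 10 secreted proteins of the hepatic acute phase response were followed through mouse liver and liver tumors: lipocalin-2 (Lcn2), the serum amyloids A Saa1, Saa2 and Saa3, the orosomucoids (alpha-1-acid glycoproteins) Orm1, Orm2 and Orm3, the lipopolysaccharide-binding protein Lbp, C-reactive protein Crp and haptoglobin Hp. These 10 genes were taken by symbol from the 22187 genes measured, and each symbol matched 1 gene. The libraries are bulk RNA-seq of liver from C57BL/6 mice, all of which had received the liver carcinogen diethylnitrosamine (25 mg/kg, intraperitoneally) at 2 weeks of age. Mice whose Il17ra gene, encoding the receptor subunit for interleukin-17A, was floxed (FF) were compared with mice that also carried Alb-Cre (dHEP). The albumin promoter directs Cre to hepatocytes, while other liver cells are not the target of the deletion. Mice were fed for 18 weeks either an alcohol diet, which the sample labels call HFD_alcohol and the design text a liquid ethanol feed, or chow. Tumors (T) and non-tumor liver (NT) were each sequenced from 4 FF and 4 dHEP mice on alcohol and 3 FF and 3 dHEP mice on chow, giving 28 libraries in 8 groups. Alcohol-fed and chow-fed mice carry separate runs of sample numbers, so diet and cohort of animals cannot be told apart. The labels do not state that each library is a separate animal, and p-values measure the spread between these libraries.

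In the acute phase response, cytokines such as interleukin-6 and interleukin-1 act on hepatocytes through STAT3, NF-kB and C/EBP factors, and the liver releases proteins that bind microbial products, iron, haemoglobin and lipids. Lcn2 sequesters bacterial siderophores and is made by neutrophils and epithelia as well as by stressed hepatocytes; it is a known target of interleukin-17 signalling. Saa1 and Saa2 are among the most strongly induced acute phase genes of the mouse liver, Saa3 is made largely outside hepatocytes, and Crp is only a weak acute phase reactant in mice.

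Several of these genes are near copies of each other, which bears on how far their values can be told apart. On GRCm38 with the GENCODE M21 annotation, Saa3, Saa1 and Saa2 lie together on chromosome 7 (chr7:46711998-46715700, chr7:46740497-46742980 and chr7:46751790-46754313) and Orm1, Orm3 and Orm2 in a row on chromosome 4 (chr4:63344560-63348163, chr4:63356162-63359511 and chr4:63362449-63365878). Lcn2 (chr2:32384633-32388252) and Lbp (chr2:158306493-158332852) are on chromosome 2, Crp (chr1:172698055-172833031) on chromosome 1 and Hp (chr8:109575128-109579172) on chromosome 8. The coding sequences of Saa1 and Saa2 were 95.1% identical, those of Orm1 and Orm2 89.9%, of Orm2 and Orm3 87.9%, and of Orm1 and Orm3 86.0%, whereas Saa1 and Saa3 shared 75.7%. Reads from such copies are divided between genes by the authors' estimation, so the split within each family is uncertain and the sums Saa1+Saa2 and Orm1+Orm2+Orm3 are given as well.

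The promoters are shown because Pearson's r of Lcn2 with each serum amyloid and orosomucoid was positive over the 14 libraries of each tissue. On log2(CPM + 1) it ran from 0.50 (Orm1) to 0.82 (Orm2) in non-tumor liver and from 0.47 (Orm3) to 0.77 (Saa1) in tumors. None of these correlations was called by permutation after adjustment. For Saa3 in tumors, r was -0.08 without the 2 tumors lowest in Lcn2. A role of the promoters in these correlations was not tested. RefSeq start sites (GRCm38.p6) were held for 7 of the 10 genes (all but Orm1, Lbp and Hp). The 250 bases before the start are printed 5′ to 3′ on the gene's strand, with matches to the C/EBP motif TTGCNNAA, on either strand, in capitals. They span chr2:32387740-32387989 (minus) for Lcn2, chr7:46742981-46743230 (minus) for Saa1, chr7:46751583-46751832 (plus) for Saa2, chr4:63362199-63362448 (plus) for Orm2 and chr4:63355908-63356157 (plus) for Orm3.
Lcn2: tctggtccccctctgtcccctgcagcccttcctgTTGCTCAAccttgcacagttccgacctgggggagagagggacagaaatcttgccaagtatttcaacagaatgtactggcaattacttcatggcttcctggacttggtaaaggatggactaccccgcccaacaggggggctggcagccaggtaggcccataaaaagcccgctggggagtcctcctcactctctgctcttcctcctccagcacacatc
Saa1: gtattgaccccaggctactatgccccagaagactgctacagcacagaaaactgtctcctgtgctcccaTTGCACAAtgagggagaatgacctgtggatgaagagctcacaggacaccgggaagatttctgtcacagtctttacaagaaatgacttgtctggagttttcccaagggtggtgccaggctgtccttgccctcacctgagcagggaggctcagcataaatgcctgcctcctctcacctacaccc
Saa2: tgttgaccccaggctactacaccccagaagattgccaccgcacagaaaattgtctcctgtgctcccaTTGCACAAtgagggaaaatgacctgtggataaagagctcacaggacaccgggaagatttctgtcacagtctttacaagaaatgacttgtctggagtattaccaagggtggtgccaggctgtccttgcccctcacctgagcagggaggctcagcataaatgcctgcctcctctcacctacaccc
Orm2: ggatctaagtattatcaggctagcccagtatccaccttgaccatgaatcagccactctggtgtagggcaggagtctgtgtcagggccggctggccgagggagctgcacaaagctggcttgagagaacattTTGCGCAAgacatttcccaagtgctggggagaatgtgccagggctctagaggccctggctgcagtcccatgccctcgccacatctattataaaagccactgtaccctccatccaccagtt
Orm3: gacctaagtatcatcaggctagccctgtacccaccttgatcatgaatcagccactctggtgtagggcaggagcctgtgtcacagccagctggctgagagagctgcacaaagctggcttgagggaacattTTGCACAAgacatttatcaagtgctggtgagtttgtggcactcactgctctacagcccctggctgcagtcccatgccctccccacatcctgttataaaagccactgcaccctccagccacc
The motif was found in 6 of the 7 promoters (all but Crp), against 9.6% of the 32851 mouse promoters of the same length. Its match was TTGCTCAA in Lcn2, TTGCACAA in Saa1, Saa2 and Orm3, TTGCGCAA in Orm2 and TTATGCAA, the reverse strand of the motif, in Saa3. The STAT palindrome TTCNNNGAA and the NF-kB consensus, each searched on both strands, were in none of the 7 windows, against 7.0% and 7.3% of all promoters. The Saa1 and Saa2 windows were 94.8% identical and those of Orm2 and Orm3 85.5%, so these matches are not independent. The motifs were chosen with the sequences in view, and a match describes letters only.

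Library depth, recovered from the spacing of low values, lay between 9.57 and 17.82 M reads. In non-tumor liver Il17ra was at 14.7 to 31.0 CPM (counts per 1e6) in FF libraries and 8.34 to 13.0 CPM in those of dHEP mice, without overlap. Within a diet, 2.75% (alcohol) and 4.64% (chow) of all genes lay apart in this direction. Il17ra itself did not pass the genotype test there (limma, Benjamini-Hochberg adjusted p = 0.29 and 0.72). In tumors the ranges overlapped (20.8 to 33.9 against 8.38 to 29.4 CPM), and Il17ra did not pass on either diet. The tumor libraries labelled dHEP-520 (28.25 CPM) and dHEP-155 (29.4 CPM) lay inside the FF range. These tumors also had the highest Lcn2 of the dHEP tumors on their diets. Bulk Il17ra RNA includes that of liver cells other than hepatocytes, and the reason for these levels was not tested. Nor was a link between Il17ra and Lcn2 in these tumors. Hepatocyte markers were abundant in every library. The tumor marker Afp was at 159.2 CPM in non-tumor FF-581 and 213 CPM in non-tumor FF-523, against 1.41 to 8.82 CPM in the other 12 non-tumor libraries. Among tumors, dHEP-549 had Afp at 5.47 CPM, inside that non-tumor range, with Gpc3 at 0.473 CPM. Values without these libraries are given beside the calls among the 10 genes.

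Lcn2 was higher in tumors than in non-tumor liver in both genotypes and on both diets. In FF mice on alcohol, Lcn2 was at 523.1, 847, 1417 and 706 CPM in the tumors of FF-595, FF-581, FF-523 and FF-503, and at 113, 101, 340 and 58.6 CPM in their non-tumor liver. In dHEP mice on alcohol it was at 53.3, 196, 598 and 330 CPM in the tumors of dHEP-550, dHEP-549, dHEP-520 and dHEP-518, and at 19.97, 47.8, 25.0 and 26.1 CPM in their non-tumor liver. Values of alcohol-fed mice are given in this order of sample numbers throughout. All 4 tumors of each of these groups lay above all 4 non-tumor libraries, the narrowest gap being that between the dHEP-550 tumor and dHEP-549 non-tumor liver. On chow, FF tumors held 1554, 1618 and 354 CPM against 35.1, 47.2 and 12.1 CPM in non-tumor liver, again without overlap. Such non-overlap with tumors higher was seen for 15.9% of all genes in FF alcohol, 13.8% in dHEP alcohol and 30.7% in FF chow. The 3 dHEP chow tumors were far apart, with 2689 CPM in dHEP-155, 206 CPM in dHEP-164 and 28.8 CPM in dHEP-165, the last of these inside the span of dHEP chow non-tumor liver (32.7, 9.999 and 7.06 CPM). Over the 11 sample numbers present in both tissues, Lcn2 was higher in the tumor in 11, from 2.67-fold (dHEP-550) to 82.2-fold (dHEP-155).

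**Figure D1:**
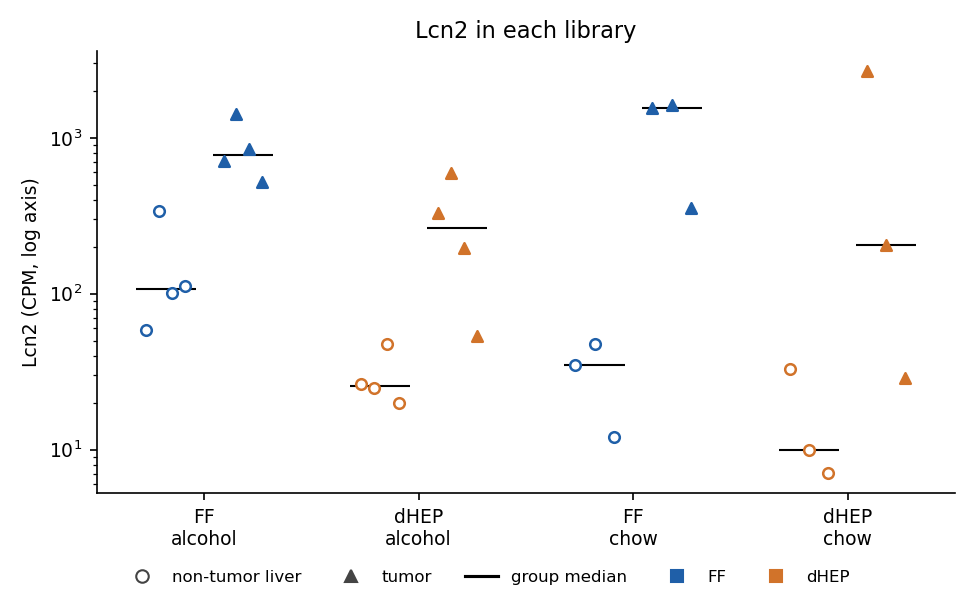
Lcn2 level (CPM, log axis) in each of the 28 libraries by genotype and diet; open circles are non-tumor liver, triangles are tumors, blue is FF, orange is dHEP, and bars are group medians. Tumors lie above non-tumor liver in 3 of the 4 pairs of groups without overlap; in dHEP mice on chow the lowest tumor (28.8 CPM) is below the highest non-tumor library (32.7 CPM).

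The tumor difference for Lcn2 passed the test in all 4 comparisons. On the scale of log2(CPM + 1), it was 2.72 ± 0.93 (SE) in FF mice on alcohol (873 ± 386 against 153 ± 127 CPM, mean ± SD, n = 4; limma, Benjamini-Hochberg adjusted p = 0.034) and 2.88 ± 0.93 in dHEP mice on alcohol (294 ± 232 against 29.7 ± 12.3 CPM, n = 4; adjusted p = 0.029, limma). On chow it was 5.09 ± 1.07 in FF mice (1175 ± 712 against 31.5 ± 17.8 CPM, n = 3; adjusted p = 0.0011, limma) and 4.14 ± 1.07 in dHEP mice (974 ± 1487 against 16.6 ± 14.04 CPM, n = 3; adjusted p = 0.0058, limma). The FF chow call held whichever library was left out (log2 4.53 to 5.81). In fits of the 2 compared groups alone, the limma adjusted p on alcohol was 0.0028 in FF and 0.016 in dHEP mice. The alcohol calls sat close to the threshold in the fit of all 28 libraries. In FF mice the adjusted p lay above 0.05 without the non-tumor library FF-503 (0.11), FF-581 (0.068) or FF-595 (0.067), or without the tumor FF-503 (0.056), FF-523 (0.092) or FF-581 (0.064). In dHEP mice it did so without non-tumor dHEP-518 (0.063), dHEP-520 (0.065) or dHEP-550 (0.070), or tumor dHEP-518 (0.072) or dHEP-520 (2.39, adjusted p = 0.10), while without the tumor dHEP-549 the difference was 2.92 (0.044). In dHEP mice on chow the difference was 2.44 without the tumor dHEP-155 (adjusted p = 0.070), and the call was also lost in a fit of the 2 compared groups alone (0.10). With non-tumor FF-523 and FF-581 both left out, an alternative added after the data were seen, the FF alcohol difference was 3.31 ± 1.14 (adjusted p = 0.045).

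By mean level the 8 groups ran, from low to high, dHEP chow NT, dHEP alcohol NT, FF chow NT, FF alcohol NT, dHEP alcohol T, FF alcohol T, dHEP chow T and FF chow T. Neighbours in this order overlapped in their single libraries with 1 exception, FF chow NT (at most 47.2 CPM) and FF alcohol NT (at least 58.6 CPM). Per kilobase of transcript, which allows levels of different genes to be compared, mean Lcn2 was between 18.1 and 167.2 CPM in the non-tumor groups and between 322 and 1285 CPM in the tumor groups. Only Hp, between 1696 and 2920 CPM per kilobase, was higher than Lcn2 in every tumor group. In non-tumor liver Orm1 (661 to 865 CPM per kilobase) and Saa1 (85.3 to 772) also stood above Lcn2 in each group.

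Among the other 9 genes the tumor difference was mostly in the opposite direction. Orm3, Lbp and Crp were called lower in tumors in all 4 comparisons, Saa3 and Orm1 in 2 of 4, and Saa1, Saa2, Orm2 and Hp in none. Counting called or not, 9, 9, 8 and 8 of the 10 differences were negative in FF alcohol, dHEP alcohol, FF chow and dHEP chow. The count of these 10 genes called higher and lower was 1 and 5 in FF mice on alcohol, where 13.9% and 10.6% of all 13503 tested genes were called higher and lower (24.6% in either direction). It was 1 and 3 in dHEP mice on alcohol (12.9% and 7.54% of all genes, 20.4% either way), 1 and 3 in FF mice on chow (21.2% and 9.55%, 30.8% either way), and 1 and 5 in dHEP mice on chow (17.2% and 10.7%, 27.9% either way). Lcn2 was the gene called higher each time. The median log2 difference over the 10 genes was -1.84, -1.16, -1.30 and -1.27 in that order, beside 0.05, 0.09, 0.16 and 0.14 over all genes tested. With median-of-ratios scaling in place of library totals, the median over all genes was 0.006, 0.002, 0.009 and 0.023. The genes called higher and lower then numbered 1606 and 1639 in dHEP mice on alcohol (1736 and 1018 with CPM), 2381 and 2090 in FF mice on chow (2864 and 1289) and 1982 and 2052 in dHEP mice on chow (2328 and 1441), and the 20 calls among the 10 genes all held.

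**Figure D2:**
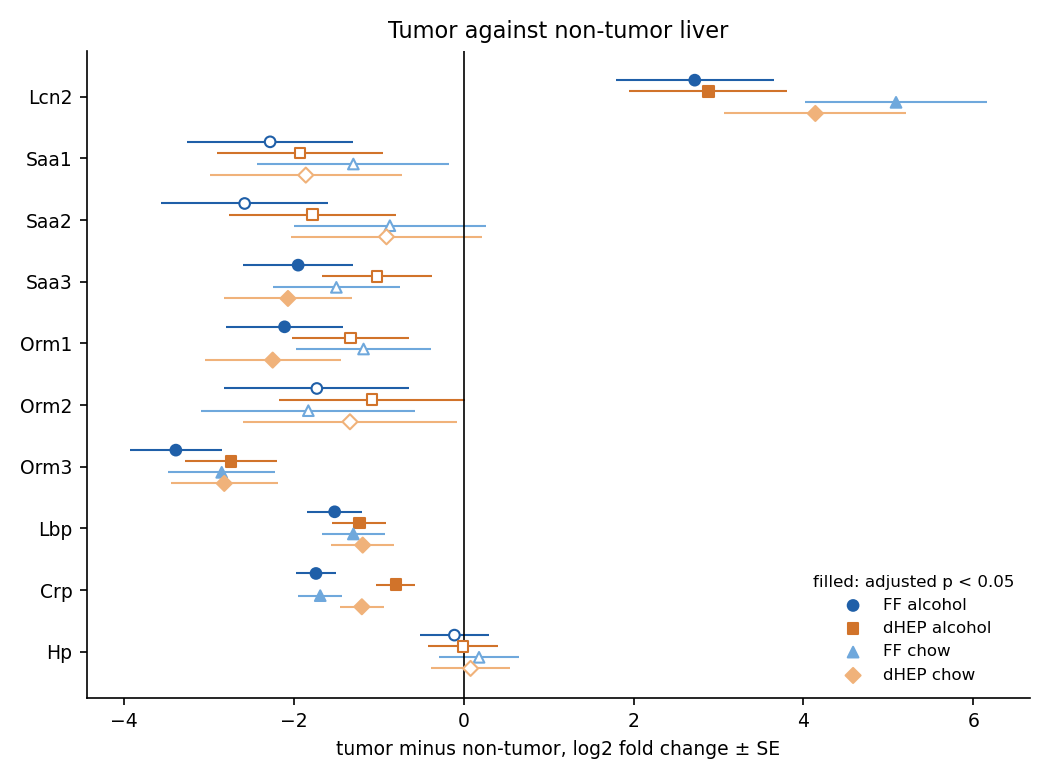
Tumor minus non-tumor log2 fold change on the log2(CPM + 1) scale with its SE for the 10 genes, in FF and dHEP mice on alcohol (n = 4 each tissue) and on chow (n = 3); filled symbols have a limma adjusted p under 0.05. Lcn2 lies to the right of 0 in all 4 comparisons, Orm3, Lbp and Crp lie to the left and are filled in all 4, and Hp is centred near 0.

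Orm3 showed the largest decrease of the 10 genes in each comparison. In FF mice on alcohol it was at 18.9, 14.6, 58.6 and 28.1 CPM in non-tumor liver and at 0.988, 0, 7.91 and 1.501 CPM in the tumors of the same numbers. In dHEP mice on alcohol non-tumor liver held 5.94, 17.1, 14.04 and 23.1 CPM and tumors 0.0705, 1.07, 3.74 and 1.17 CPM. On chow, non-tumor values ran from 5.24 to 12.5 CPM and tumor values from 0 to 1.37 CPM over both genotypes. Tumor and non-tumor libraries of the same group did not overlap for Orm3 in any of the 4 comparisons; non-overlap in this direction was seen for 12.4% of all genes in FF alcohol, 7.38% in dHEP alcohol, 15.7% in FF chow and 15% in dHEP chow. The log2 differences were -3.39 ± 0.54 (FF alcohol, limma adjusted p = 8.6e-05), -2.74 ± 0.54 (dHEP alcohol, 0.0011), -2.85 ± 0.63 (FF chow, 0.0016) and -2.82 ± 0.63 (dHEP chow, 0.0018), and all 4 calls held whichever library was left out (FF alcohol without non-tumor FF-523 and FF-581, -3.22, 0.0015). Orm3 is listed at 0 in the tumors FF-581 and dHEP-165, and the added 1 in the log scale understates a change at such low levels. The split of reads between Orm3 and its near copies is uncertain. The sum Orm1+Orm2+Orm3, mostly Orm1, was not called in dHEP alcohol (limma adjusted p = 0.20) or FF chow (0.28).

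Crp, a pentraxin that binds phosphocholine on microbes and damaged cells, was lower in tumors without overlap in any group. In FF mice on alcohol it was at 306, 222, 253 and 268 CPM in non-tumor liver and at 96.5, 58.1, 78.7 and 81.8 CPM in tumors of the same numbers (log2 difference -1.74 ± 0.23, limma adjusted p = 1e-05; without non-tumor FF-523 and FF-581, -1.87, 0.00015). In dHEP mice on alcohol the values were 211, 251, 258 and 287 CPM in non-tumor liver and 189, 199, 139 and 81.2 CPM in tumors. Those tumors were uneven: dHEP-518 was the lowest, and dHEP-549 and dHEP-550, the pair with the lowest Gpc3 (0.473 and 1.66 CPM), were the nearest to non-tumor liver. The difference there was -0.80 ± 0.23 (limma adjusted p = 0.016); without tumor dHEP-518 it was -0.52 (0.075), without non-tumor dHEP-518 the adjusted p was 0.052, without tumor dHEP-520 it was -0.78 (0.036), and without tumor dHEP-549 it was -0.95 (0.0060). In a fit of the 2 compared groups alone the adjusted p was 0.073. On chow Crp was at 382, 343 and 285 CPM in FF and 315, 314 and 302 CPM in dHEP non-tumor liver, against 141, 73.3 and 105 CPM and 140, 105 and 168.2 CPM in tumors. The chow differences were -1.69 ± 0.26 in FF (limma adjusted p = 8.8e-05) and -1.20 ± 0.26 in dHEP mice (0.0018).

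Lbp, which hands bacterial lipopolysaccharide to Cd14, was lower in tumors in all 4 comparisons and in all 11 shared numbers. Non-tumor liver held 205, 97.0, 110 and 95.5 CPM in FF and 102, 102, 98.1 and 94.2 CPM in dHEP mice on alcohol, against 43.6, 18.3, 75.3 and 47.9 CPM and 39.8, 51.8, 42.3 and 34.8 CPM in tumors. On chow, values were 133, 166.6 and 123 CPM (FF) and 121, 113 and 105 CPM (dHEP) in non-tumor liver and 42.3, 76.8 and 54.1 CPM and 75.4, 26.2 and 58.1 CPM in tumors. No tumor reached the lowest non-tumor library of its group. The log2 differences were close to each other, from -1.52 ± 0.32 (FF alcohol, limma adjusted p = 0.0013) through -1.30 ± 0.37 (FF chow, 0.010) and -1.23 ± 0.32 (dHEP alcohol, 0.0089) to -1.19 ± 0.37 (dHEP chow, 0.019). The FF chow call was lost without the tumor FF-167 (adjusted p = 0.056), and the dHEP chow call without the tumor dHEP-164 (0.12) or non-tumor dHEP-155 (0.056), or in a fit of the 2 compared groups alone (0.067). The FF alcohol difference was -1.74 (0.0045) without non-tumor FF-523 and FF-581, and the dHEP alcohol one -1.23 (0.018) without tumor dHEP-520 and -1.33 (0.0090) without tumor dHEP-549.

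Saa1 and Saa2 varied widely between libraries of a group. Saa1 was at 1200, 43.8, 549.3 and 87.0 CPM in non-tumor liver of FF mice on alcohol, a 27.4-fold spread within the group, and at 50.4, 25.3, 123 and 27.02 CPM in their tumors. In dHEP mice on alcohol it was at 70.8, 264, 70.4 and 60.3 CPM in non-tumor liver and at 8.48, 57.3, 51.2 and 12.6 CPM in tumors. The widest spread was that of the dHEP chow tumors, with 96.5, 12.1 and 0.908 CPM in dHEP-155, dHEP-164 and dHEP-165. Saa1 was lower in the tumor in 10 of 11 shared numbers, as was Saa2, and both were higher in the tumor in dHEP-155. The Saa1 difference was -2.28 ± 0.98 in FF mice on alcohol (limma adjusted p = 0.093) and -1.93, -1.30 and -1.86 in the other comparisons (adjusted p = 0.17, 0.41 and 0.23). In a fit of the 2 compared groups alone, the limma adjusted p of Saa1 in FF mice on chow was 0.041. Without tumor dHEP-155 the dHEP chow difference of Saa1 was -3.29 (limma adjusted p = 0.040). For Saa2 the FF alcohol difference was -2.58 ± 0.98 (limma adjusted p = 0.056), and for the sum Saa1+Saa2 it was -2.40 ± 1.0 (0.084).

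In FF mice on alcohol, tumor and non-tumor libraries of the same number deviated from their group means together (r from 0.16 to 0.36). The labels do not say that a number is a single animal. In the fit with the number as a block, 35.2% of 12708 genes were called (15.6% lower). That fit changed 3 calls among the 10 genes. Saa1 (limma adjusted p = 0.014), Saa2 (0.013) and Orm2 (0.0038) were then lower in tumors. In that group 9 of the 10 genes were called with the block and 6 without it, Hp being the exception.

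Saa3, the serum amyloid of macrophages and adipose tissue, was lower in tumors of FF mice on alcohol and of dHEP mice on chow. It was at 47.1, 11.5, 26.6 and 14.3 CPM in non-tumor liver and 9.42, 0.738, 14.2 and 3.10 CPM in tumors of FF mice on alcohol, and at 19.3, 11.4 and 5.23 CPM and 3.85, 2.89 and 0.135 CPM in dHEP mice on chow. Within each number the tumor was lower, but the groups overlapped in FF mice on alcohol (14.2 against 11.5 CPM). The differences were -1.95 ± 0.65 (limma adjusted p = 0.030) and -2.07 ± 0.75 (0.042). The FF alcohol call was lost without non-tumor FF-523 (0.066) or FF-595 (0.11) or tumor FF-503 (0.079) or FF-581 (0.14), without non-tumor FF-523 and FF-581 together (0.057), or in a fit of the 2 compared groups alone (0.051). The dHEP chow call was lost without non-tumor dHEP-155 (0.16) or dHEP-164 (0.098) or tumor dHEP-165 (0.19), or in the 2-group fit (0.070); without tumor dHEP-155 it was -2.47 (0.043). In the remaining comparisons Saa3 differed by -1.02 (dHEP alcohol, limma adjusted p = 0.29) and -1.50 (FF chow, 0.13). In FF mice on chow the libraries of the tissues did not overlap (9.23 to 13.97 against 2.24 to 5.02 CPM). The limma adjusted p there was 0.0072 in the 2-group fit.

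Orm1 made up 79.8 to 99.1% of the orosomucoid CPM in every library, so the family total followed it. In FF mice on alcohol Orm1 was at 950, 377, 860 and 494 CPM in non-tumor liver and at 110, 88.8, 290 and 149 CPM in tumors, without overlap. In dHEP mice on chow non-tumor liver was even, at 600, 580.6 and 513 CPM, while tumors held 965, 38.0 and 43.5 CPM; dHEP-155 was above and the other 2 far below. The log2 differences were -2.11 ± 0.69 (limma adjusted p = 0.028) and -2.25 ± 0.80 (0.038), and those of the summed family -2.12 ± 0.72 (0.034) and -2.22 ± 0.83 (0.049). Of these Orm1 calls, the FF alcohol one was lost without non-tumor FF-523 (0.067) or FF-595 (0.077) or tumor FF-503 (0.051), FF-581 (0.080) or FF-595 (0.065), or without non-tumor FF-523 and FF-581 together (0.073). The dHEP chow one was lost without non-tumor dHEP-155 (0.087), dHEP-164 (0.087) or dHEP-165 (0.078) or tumor dHEP-164 (0.19) or dHEP-165 (0.18), or in the 2-group fit (0.23), and was -3.76 (0.00011) without tumor dHEP-155. The Orm1 difference was -1.33 ± 0.69 in dHEP mice on alcohol (limma adjusted p = 0.18) and -1.18 in FF mice on chow (0.28). In the 2-group fit the limma adjusted p of Orm1 was 0.049 in dHEP and 0.0035 in FF mice on alcohol. Orm2 differed by -1.73, -1.08, -1.83 and -1.34 in the 4 comparisons (limma adjusted p from 0.27 to 0.53), and its values in the dHEP chow tumors were 161, 1.59 and 0.378 CPM. Without tumor dHEP-155 the dHEP chow difference of Orm2 was -3.48 (limma adjusted p = 0.021).

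**Figure D3:**
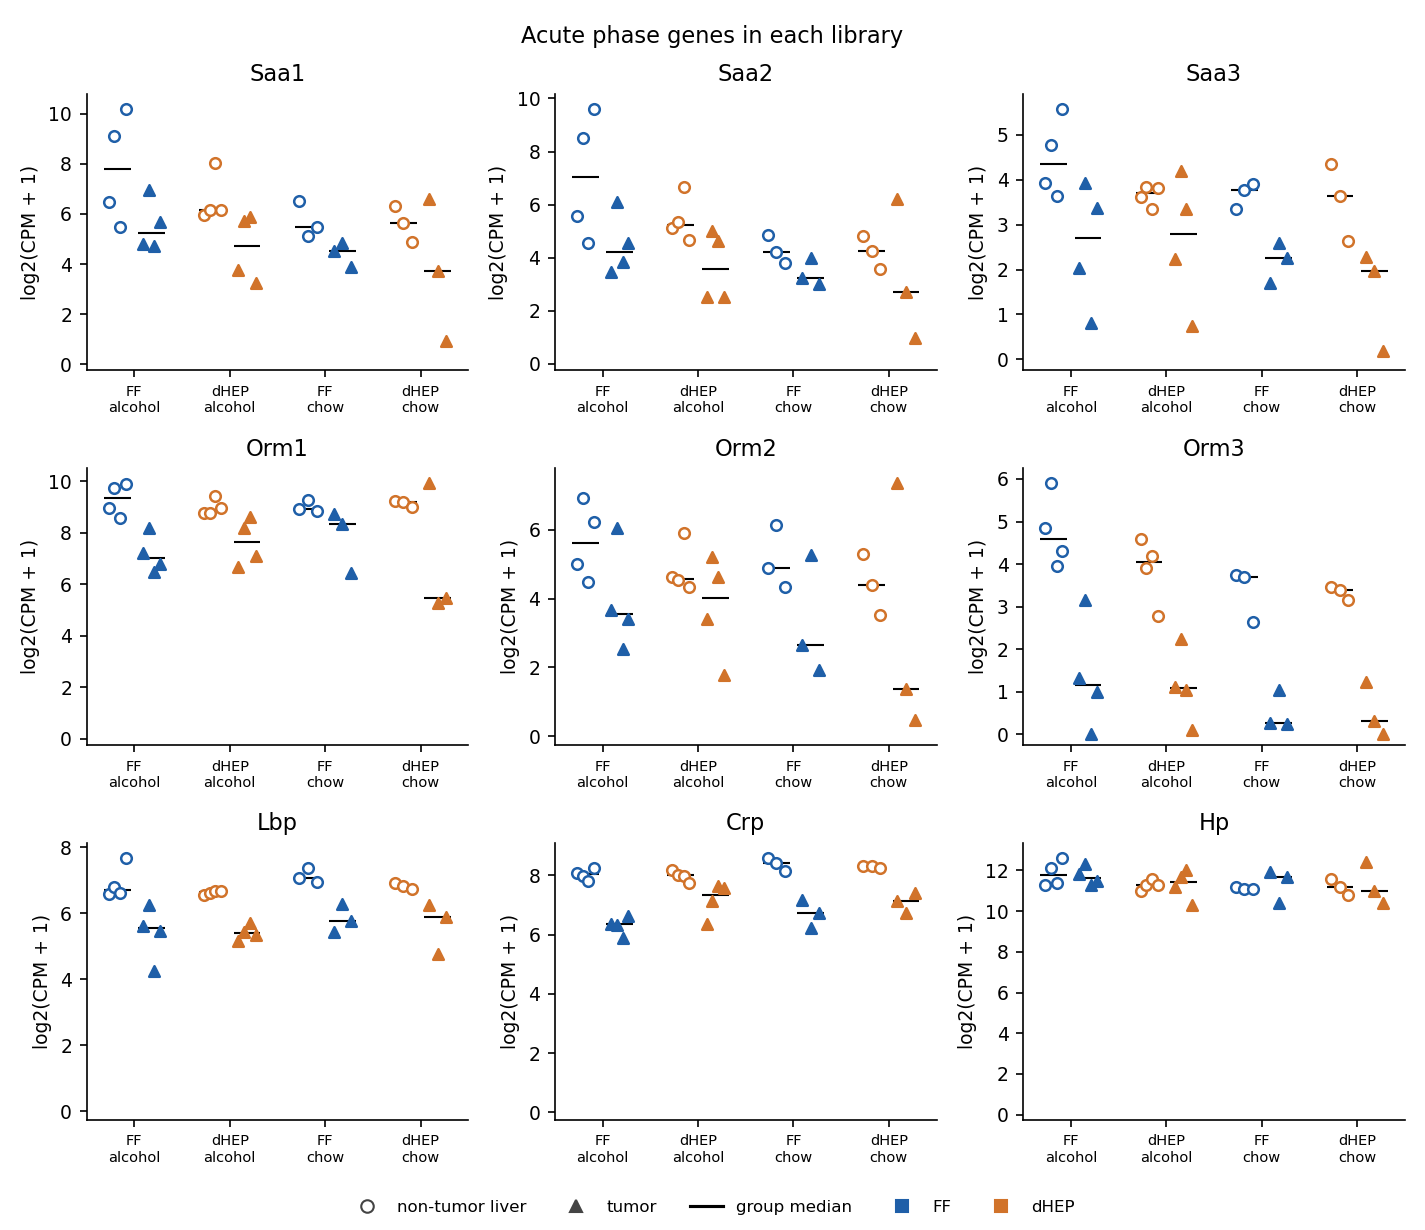
Level of the 9 other genes, as log2(CPM + 1), in each of the 28 libraries; open circles are non-tumor liver, triangles are tumors, blue is FF, orange is dHEP, bars are group medians, and each panel has its own axis starting near 0. Crp, Lbp and Orm3 tumors lie below non-tumor liver in every group, Hp is at the same height in both tissues, and the dHEP-155 tumor is the high triangle on chow in Saa1, Saa2, Orm1 and Orm2 (96.5, 73.5, 965 and 161 CPM).

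Haptoglobin, which clears free haemoglobin, was the most abundant of the 10 genes and showed no called tissue difference. Hp was at 6211, 2723, 4268 and 2508 CPM in non-tumor liver and 2961, 2492, 5056 and 3535 CPM in tumors of FF mice on alcohol. Over all groups it lay between 1788 and 6211 CPM in non-tumor liver and between 1266 and 5519 CPM in tumors, and it was higher in the tumor in 6 and lower in 5 of the 11 shared numbers. The log2 differences were -0.11 ± 0.41, -0.01 ± 0.41, 0.18 ± 0.47 and 0.08 ± 0.47 (limma adjusted p from 0.80 to 0.99). Each of the 4 changed sign when some library was left out, and the last was -0.05 with median-of-ratios scaling.

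The share of Lcn2 among the 10 genes differed between the tissues, while their total spanned like ranges. The 10 genes took 0.278 to 0.991% of all CPM in non-tumor liver and 0.169 to 0.972% in tumors. Lcn2 took 0.254 to 4.89% of that sum in non-tumor liver and 1.70 to 45.5% in tumors. The ratio of Lcn2 to Saa1 CPM was between 0.0939 and 2.31 in the 14 non-tumor libraries and between 3.42 and 71.1 in the 14 tumors, without overlap. Saa2 remained a minor to equal share of Saa1+Saa2 (23.0 to 52.0%).

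Markers of other cells were measured in the same libraries. The marker calls below are to be read beside the shares of all genes called in FF alcohol, dHEP alcohol, FF chow and dHEP chow. These shares were 13.9%, 12.9%, 21.2% and 17.2% higher in tumors and 10.6%, 7.54%, 9.55% and 10.7% lower. The summed level of 12 neutrophil markers was 3.32 to 26.8 CPM in non-tumor liver and 2.73 to 45.2 CPM in tumors; 9 of the 12 were at 0 in at least 1 library, with Ly6g at 0 in 27 of 28 and Elane in 14. The sum was highest in the FF-168 (45.2 CPM) and dHEP-155 (42.8 CPM) tumors, which also had the highest Lcn2 of all libraries (1618 and 2689 CPM), while the FF-167 tumor, with Lcn2 at 1554 CPM, had a sum of 7.83 CPM. Of 10 Kupffer cell and macrophage markers, 0 were called higher and 4 lower in tumors of FF mice on alcohol, 0 and 3 in dHEP mice on alcohol, 3 and 0 in FF mice on chow and 1 and 5 in dHEP mice on chow. Their sum spanned 184 to 567 CPM in non-tumor liver and 55.4 to 422 CPM in tumors. Hepatocyte markers (8 genes, led by Alb) summed to 58380 to 100894 CPM in non-tumor liver and 99065 to 192739 CPM in tumors, with no marker at 0 in any library. Most single markers did not follow this sum. Of the 8, 5, 5, 6 and 5 had negative differences in FF alcohol, dHEP alcohol, FF chow and dHEP chow. By limma 2, 2, 1 and 1 were called higher and 2, 1, 2 and 3 lower. Cholangiocyte markers (6 genes, mostly Spp1) summed to 22.5 to 104 CPM and 7.38 to 3168 CPM, the highest again being dHEP-155. Of 6 stellate cell markers, 1, 1, 3 and 3 were called higher and 0 lower in the 4 comparisons (FF alcohol, dHEP alcohol, FF chow, dHEP chow), with sums of 49.96 to 145 CPM in non-tumor liver and 51.8 to 574 CPM in tumors. Of 5 adipocyte markers only Cfd could be tested; Plin1 and Lep were at 0 in 27 of 28 libraries and Adipoq in 23. Cfd was lower in tumors (log2 difference -4.76 ± 0.52 in FF alcohol, -4.44 ± 0.52 in dHEP alcohol and -3.08 ± 0.60 in dHEP chow, limma adjusted p = 1.8e-06, 6.8e-06 and 0.00064) and differed by -1.0 in FF chow (0.22). The part of these cells in the differences was not tested, and in bulk tissue fewer cells of a type and less RNA per cell cannot be told apart.

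In non-tumor liver of alcohol-fed mice the 10 genes had lower mean log values in dHEP than in FF mice, but none passed the test. Lcn2 was the 1 gene whose groups did not overlap (2.75% of all genes were apart in this direction): the highest dHEP library, dHEP-549 with 47.8 CPM, was below the lowest FF library, FF-503 with 58.6 CPM. Its log2 difference, dHEP minus FF, was -2.09 ± 0.56 (limma adjusted p = 0.37). All 10 differences were negative, with a median of -0.82 beside -0.05 over all genes. After Lcn2 came Saa2 (-1.63 ± 0.87, limma adjusted p = 0.64), Saa1 (-1.24 ± 0.85, 0.73), Orm3 (-0.89 ± 0.42, 0.59), Saa3 (-0.83 ± 0.39, 0.59), Orm2 (-0.80 ± 0.56) and Hp (-0.52 ± 0.26, 0.62); Orm1, Lbp and Crp were within -0.31 and -0.06. By limma, 0% of the 12651 genes tested were called in this comparison, and 8.51% had an unadjusted p under 0.05, as had 1 of the 10 genes, Lcn2. In the FF group the high values came from FF-523 (Lcn2 340, Saa1 549.3, Orm2 119 CPM) and FF-595 (Saa1 1200, Saa2 782, Hp 6211 CPM). Without FF-523 and FF-581 the Lcn2 difference was -1.50 ± 0.60 (limma adjusted p = 0.76), and all 10 differences stayed negative. The neutrophil marker sum was 6.995 to 26.8 CPM in these FF libraries and 4.12 to 15.1 CPM in the dHEP ones, highest in FF-523 and dHEP-549, and its part in the difference was not tested.

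In the other genotype comparisons 8 of the 10 differences were negative in chow non-tumor liver, 6 in alcohol tumors and 9 in chow tumors. On chow, non-tumor Lcn2 was 31.5 ± 17.8 CPM in FF and 16.6 ± 14.04 CPM in dHEP mice (n = 3; log2 difference -0.98 ± 0.64, limma adjusted p = 0.99). Lbp was the 1 gene whose chow groups lay apart (123 to 166.6 CPM in FF, 105 to 121 CPM in dHEP; 4.64% of all genes), at -0.31 ± 0.22 (limma adjusted p = 0.99). In tumors, the Lcn2 difference was -1.93 ± 1.10 on alcohol and -1.92 ± 1.27 on chow (limma adjusted p = 0.84 and 1), with overlapping libraries. Without the tumors dHEP-520 and dHEP-155, each left out of its own diet's comparison, it was -2.42 (limma adjusted p = 0.51) and -3.62 (0.40). These were the highest in Lcn2 of the dHEP tumors on their diets, so leaving them out could only move the difference further below 0. Crp pointed the other way in alcohol-fed tumors, at 78.8 ± 15.8 CPM in FF and 152 ± 54.2 CPM in dHEP mice (0.88 ± 0.29, limma adjusted p = 0.69). The medians over the set were -0.10 (chow, non-tumor), -0.20 (alcohol, tumor) and -0.21 (chow, tumor). Again 0% of genes were called in each of these comparisons, with 4.65%, 6.31% and 2.86% at an unadjusted p under 0.05; of the 10 genes 0, 1 (Crp) and 0 had one.

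With alcohol feeding, 8 of the 10 genes had higher values in FF non-tumor liver than with chow, and again none passed the test. The median log2 difference, alcohol minus chow, was 0.75 beside 0.01 over all genes. Lcn2 (58.6 to 340 CPM against 12.1 to 47.2 CPM), Orm3 (14.6 to 58.6 against 5.24 to 12.5 CPM) and Hp (2508 to 6211 against 2212 to 2363 CPM) did not overlap between diets, as was the case for 4.19% of all genes. The differences were 2.77 ± 0.94 for Saa2 (limma adjusted p = 0.20), 2.13 ± 0.60 for Lcn2 (0.13), 2.12 ± 0.92 for Saa1 (0.32), 1.39 ± 0.46 for Orm3 (0.18) and 0.69 ± 0.28 for Hp (0.29). Crp (-0.36 ± 0.13, limma adjusted p = 0.24) and Lbp (-0.21) were the 2 with lower values on alcohol. Of all genes, 0.577% were called and 14% had an unadjusted p under 0.05, as had 6 of the 10 (Lcn2, Saa1, Saa2, Orm3, Crp and Hp). Without FF-523 and FF-581 the Lcn2 difference was 1.54 ± 0.63 (limma adjusted p = 0.39). In dHEP non-tumor liver the same median was 0.28, with Lcn2 at 1.02 ± 0.60 (limma adjusted p = 0.51); Lbp and Crp lay apart, lower on alcohol (12.9% of all genes), at -0.18 and -0.31 ± 0.13, and 0.656% of genes were called. Crp was the 1 of the 10 at an unadjusted p under 0.05 there, beside 13.1% of all genes. Tumors gave medians of 0.37 (FF) and 0.48 (dHEP) with 0% and 0.00757% of all genes called, and Lcn2 there differed by -0.24 ± 1.18 and -0.25 ± 1.18. At an unadjusted p under 0.05 were 0 of the 10 in both, beside 5.44% and 10.9% of all genes. The neutrophil sum in FF non-tumor liver was 6.995 to 26.8 CPM on alcohol and 3.32 to 12.3 CPM on chow, and all 9 tested Kupffer cell and macrophage markers had positive differences there (median 0.72, 0 called by limma, 3 at an unadjusted p under 0.05; sums 372 to 567 against 184 to 419 CPM). Of the adipocyte markers, Cfd was higher on alcohol in that tissue by 4.51 ± 0.63 (limma adjusted p = 0.0098). The summed adipocyte markers (20.88 to 95.96 against 0.181 to 4.49 CPM) were almost all Cfd on alcohol. They do not show several markers rising together. Plin1 and Lep were at 0 in every library of both groups, and Adipoq and Retn were too low to be tested. The part of these cells was not tested.

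**Figure D4:**
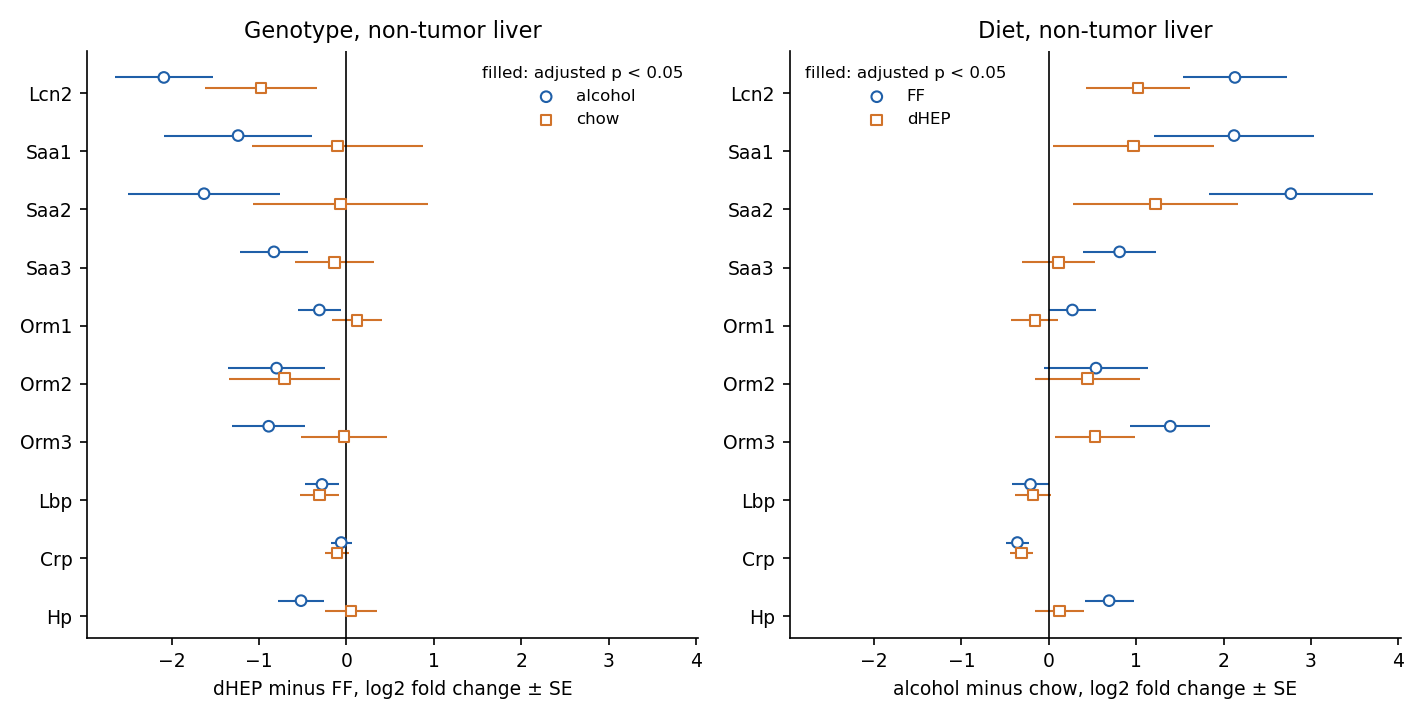
Log2 differences on the log2(CPM + 1) scale with SE in non-tumor liver: left, dHEP minus FF on alcohol (n = 4) and chow (n = 3); right, alcohol minus chow in FF and dHEP mice. No symbol is filled, that is, no limma adjusted p is under 0.05; on alcohol all 10 genotype differences lie left of 0, with Lcn2 the farthest at -2.09.

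Whether an effect depended on another factor was tested by interaction terms, and none of the 10 genes was called in any of the 6 (limma, 0% of all genes were called in each). At an unadjusted p under 0.05 was 1 of the 10, Crp in the genotype by tissue term on alcohol. All genes gave 6.88% and 4.95% for genotype by diet (non-tumor, tumor), 1.97% and 3.12% for genotype by tissue (alcohol, chow) and 5.93% and 6.42% for diet by tissue (FF, dHEP). The genotype by diet term of Lcn2 in non-tumor liver was -1.11 ± 0.85 on the log2 scale (limma adjusted p = 0.81). Its diet by tissue term, the tumor difference on alcohol minus that on chow, was -2.37 ± 1.42 in FF mice (limma adjusted p = 0.90) and -1.26 ± 1.42 in dHEP mice (0.92). On alcohol the genotype by tissue terms were positive for all 10 genes, with a median of 0.65 beside 0.04 over all genes, and Crp had the smallest p of them (0.94 ± 0.32, limma adjusted p = 1).

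Across the 14 non-tumor libraries, Lcn2 was most correlated with Orm2 and Orm3 and least with Lbp and Crp. Pearson's r on log2(CPM + 1) was 0.82 with Orm2 (Spearman's rho 0.82), 0.81 with Orm3 (0.80), 0.76 with Saa2 (0.71), 0.73 with Hp (0.67) and 0.70 with Saa1 (0.64). It was 0.64 with Saa3, 0.50 with Orm1, 0.21 with Lbp and -0.22 with Crp. By permutation (100000 resamples, two-sided) and Benjamini-Hochberg adjustment over the 12650 genes correlated with Lcn2, 0 of the 9 were called, against 0.0632% of all genes, and 6 had a raw p under 0.05, against 14.2% of all genes; the raw and adjusted p were 0.00036 and 0.092 for Orm2 and 0.00062 and 0.11 for Orm3. Of those genes, 31 had a higher r with Lcn2 than Orm2 and 44 than Orm3. Without the libraries farthest in Lcn2, FF-523 and dHEP-165, r was 0.61 for Orm2, 0.63 for Orm3, 0.61 for Saa2, 0.59 for Hp and 0.52 for Saa1, and 0.40 for Saa3. Within diets the correlation with Orm2 was 0.79 over 8 alcohol and 0.93 over 6 chow libraries, and on deviations from the 4 group means it was 0.86. Those deviations gave lower values than the pooled ones for Orm3 (0.63), Saa2 (0.55), Hp (0.53), Saa1 (0.52) and Saa3 (0.37). For Crp the values within diets were 0.16 and 0.71, both above the pooled one.

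In tumors the largest correlations of Lcn2 were with Saa1 (r = 0.77, rho = 0.62), Saa2 (0.74, 0.65), Orm2 (0.73, 0.70), Orm1 (0.66, 0.61) and Hp (0.63, 0.49). Saa3 and Orm3 gave r of 0.48 and 0.47, Lbp 0.22, and Crp -0.52 (rho -0.49). Again 0 of 9 were called by the permutation test, against 0.386% of 13204 genes, and 5 had a raw p under 0.05, against 22.4%, with raw and adjusted p of 0.0012 and 0.064 for Saa1, 0.0028 and 0.078 for Saa2 and 0.0027 and 0.078 for Orm2. Without dHEP-165 and dHEP-550, the tumors lowest in Lcn2, r was 0.48 for Saa1, 0.53 for Saa2, 0.59 for Orm2, 0.66 for Orm1, 0.25 for Hp and -0.08 for Saa3, so the pooled relation with Saa3 did not hold without those tumors. For Hp, r was 0.73 over the alcohol and 0.60 over the chow tumors, and 0.86 without the tumor FF-168. The diets differed in size for Orm1, where r was 0.05 over the 8 alcohol tumors and 0.90 over the 6 chow tumors; this difference was not tested. Saa1 gave 0.67 and 0.95, and Crp -0.77 and -0.37. On deviations from the group means, r was 0.86 for Saa1, 0.83 for Saa2, 0.87 for Orm2 and 0.79 for Orm1. Those deviations gave 0.66 for Hp, 0.60 for Orm3, 0.57 for Saa3, 0.20 for Lbp and -0.31 for Crp.

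**Figure D5:**
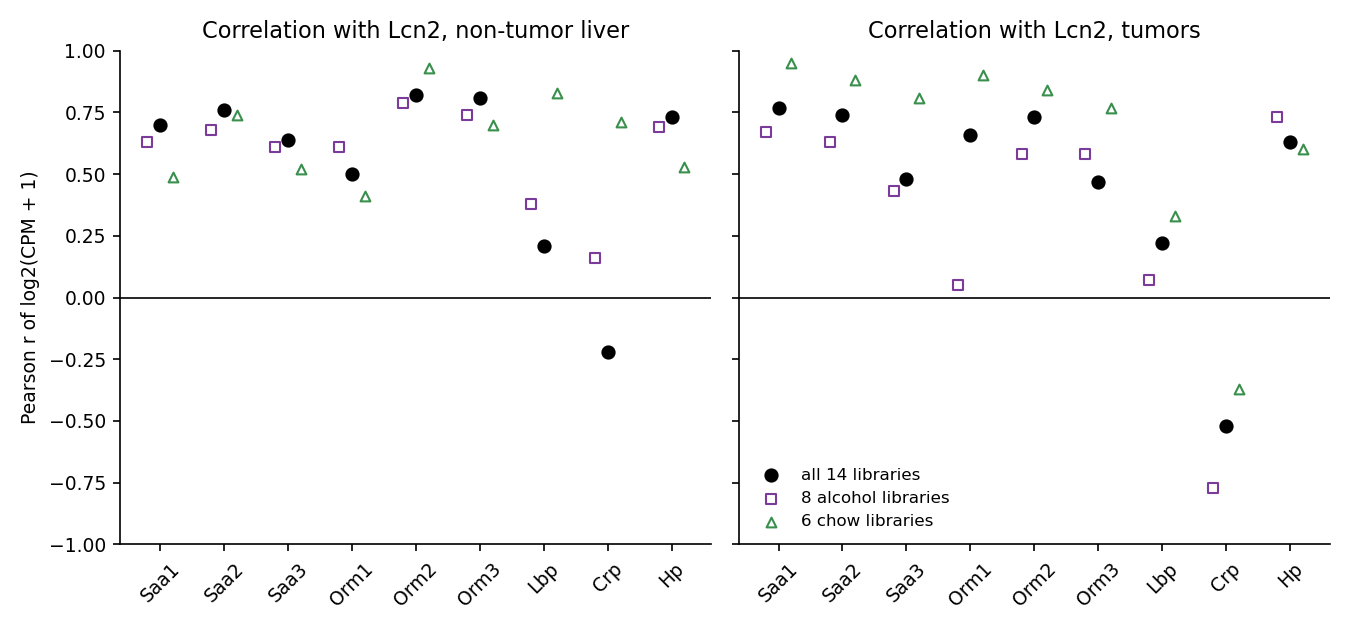
Pearson correlation of Lcn2 with each of the other 9 genes on log2(CPM + 1) in non-tumor liver (left) and tumors (right); black circles are all 14 libraries, purple squares the 8 alcohol and green triangles the 6 chow libraries. Saa, Orm and Hp genes lie above 0 in both tissues, Crp lies below 0 in the pooled values (-0.22 and -0.52), and Orm1 in tumors is split by diet (0.05 and 0.90).

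The other genes were also correlated among themselves. In non-tumor liver Saa1 and Saa2 which are near copies, had r = 0.98, and Saa1 and Hp 0.94. Saa3 and Hp had 0.88, whereas Orm3 and Lbp had -0.08. In tumors r was 0.97 for Saa1 and Saa2, 0.90 for Saa2 and Orm2, 0.85 for Orm1 and Orm2 and 0.82 for Saa3 and Orm3, while Crp stayed between -0.22 and 0.24 with all genes but Lcn2. These are descriptions over 14 libraries that mix 4 groups. Over the 11 numbers with both tissues, the tumor level and the non-tumor level of a gene were correlated most for Orm3 (r = 0.77, rho = 0.63), Lcn2 (0.67, 0.67), Orm2 (0.67, 0.79) and Saa1 (0.65, 0.71), and least for Crp (0.01, 0.02). The permutation p was 0.0061 for Orm3 and 0.025 for Lcn2 and Orm2, with adjusted p of 0.27, 0.37 and 0.37, and 0% of 12322 genes were called; 4 of the 10 had a raw p under 0.05, beside 11.2% of all genes, whose median r was 0.25. Without the 2 numbers farthest in the gene r was 0.43 for Orm3, 0.42 for Lcn2 and 0.75 for Orm2.

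The named protein-coding genes whose level was most like that of Lcn2 were different in each tissue. Over the 14 non-tumor libraries they were Ywhah (a 14-3-3 protein, r = 0.901), Fgr (a Src-family kinase of myeloid cells, 0.889), Myo1f (a myosin of leukocytes, 0.874), Hpx (the haem-binding plasma protein hemopexin, 0.870) and Flot1 (a membrane raft protein, 0.866). Hpx, itself an acute phase protein, ran from 2560 to 6354 CPM. In tumors they included Clca3a1 (r = 0.903), Lgmn (the lysosomal protease legumain, 0.899), Ptprm (a receptor phosphatase, 0.887) and Aldh1l2 (a mitochondrial folate enzyme, 0.883). Over all 28 libraries, which mix the tissue difference into the likeness, they were Iqgap1 (0.917), Tmem176a (0.916), Casc4 (0.906), Etv5 (0.905) and the interleukin-1 receptor antagonist Il1rn (0.903).

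Genes upstream and downstream of the 10 were called in the tissue comparisons only: of 496 tests of the genes below by genotype or by diet, 0 were called by limma and 50 (10.1%) had an unadjusted p under 0.05, beside 8.18% of the tests of all genes. In the tissue comparisons below, the shares of all genes called are those given above (24.6%, 20.4%, 30.8% and 27.9% in FF alcohol, dHEP alcohol, FF chow and dHEP chow), and the list counts are descriptions to be read against them. Il1rn was higher in tumors in all 4 comparisons, by 2.31 ± 0.61 in FF and 2.73 ± 0.61 in dHEP mice on alcohol and by 3.47 ± 0.71 and 3.76 ± 0.71 on chow (limma adjusted p from 0.00044 to 0.0074). Il1rap, the accessory chain that interleukin-1 receptors need to signal, was lower in all 4 (-1.24, -0.95, -1.66 and -1.42; limma adjusted p from 0.00014 to 0.0061). Of the 18 tested genes of acute phase induction and signalling, 1 higher and 2 lower were called in FF mice on alcohol, 1 and 2 in dHEP mice on alcohol, 5 and 1 in FF mice on chow and 5 and 3 in dHEP mice on chow. Cebpb, a C/EBP factor, was lower in FF tumors on alcohol (-0.98 ± 0.29, limma adjusted p = 0.015), and Lifr, a receptor chain for interleukin-6 type cytokines, in dHEP tumors on chow (-1.14 ± 0.27, 0.0031). Tnf was higher in FF tumors on chow (1.35 ± 0.29, limma adjusted p = 0.0015), at a mean of 2.08 CPM. Il6 and Osm were too low to be tested.

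Of 11 receptors and partners of the secreted proteins, 3, 2, 4 and 3 were called in tumors in the 4 comparisons (FF alcohol, dHEP alcohol, FF chow, dHEP chow), shares near those of all genes. Cd14, to which Lbp passes lipopolysaccharide, was higher by 2.46 ± 0.50 in FF mice on alcohol, 3.66 ± 0.58 in FF mice on chow and 3.43 ± 0.58 in dHEP mice on chow (limma adjusted p = 0.00092, 9.5e-05 and 0.00016). Cd163, the macrophage receptor that takes up haptoglobin with haemoglobin, was lower in all 4 comparisons (-2.27, -2.78, -1.78 and -2.83; limma adjusted p from 0.0013 to 0.040). By direction these calls were 1 higher and 2 lower, 1 and 1, 3 and 1, and 2 and 1.

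Of 20 further positive acute phase genes, 3 were called higher and 1 lower in FF mice on alcohol, 0 and 1 in dHEP mice on alcohol, 1 and 1 in FF mice on chow and 4 and 0 in dHEP mice on chow (all genes lower, 10.6%, 7.54%, 9.55% and 10.7%), with medians of 0.46, 0.30, 0.13 and 0.29. The copper carrier Cp was higher by 1.51 ± 0.36, 1.23 ± 0.42 and 1.37 ± 0.42 in FF alcohol, FF chow and dHEP chow tumors (limma adjusted p = 0.0034, 0.028 and 0.016). Saa4, the constitutive serum amyloid, was lower in FF and dHEP mice on alcohol (-1.35 ± 0.49 and -1.63 ± 0.49, limma adjusted p = 0.047 and 0.021). The iron hormone Hamp was lower in FF mice on chow (-2.36 ± 0.81, limma adjusted p = 0.029). Of 8 negative acute phase proteins, which fall in inflammation, 3 were called higher and 1 lower in tumors of FF mice on alcohol. The counts were 3 and 1 in dHEP alcohol, 2 and 2 in FF chow and 1 and 1 in dHEP chow. Ahsg was higher in tumors in all 4 comparisons (1.72, 1.65, 1.08 and 1.39, limma adjusted p from 0.00026 to 0.024). Igfals, the partner of circulating insulin-like growth factors, was lower in all 4 (-2.79, -2.19, -3.59 and -2.78, limma adjusted p from 0.00031 to 0.0077). Among 6 interleukin-17 receptor and adaptor genes, Il17rd in dHEP mice on chow was the 1 called (1.07 ± 0.29, limma adjusted p = 0.0083).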

How the data were processed

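RNA-seq libraries of 14 tumors and 14 non-tumor livers were analysed. The authors deposited CPM (counts scaled to library totals of 1e6) for 22187 genes; per the submitters' processing notes, STAR 2.5.1a and RSEM 1.3.0 were used with GRCm38. CPM carry no counting error, and of the low values only 84.8 to 87.0% came out as whole reads, so no count model was used.

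Genes that reached 1 CPM in 3 or more of the fitted libraries were tested with limma 3.58.1 (R 4.3.3) on log2(CPM + 1) with a mean-variance trend. Genotype and diet were fitted in the 14 libraries of a tissue, tissue in all 28 (12 comparisons and 6 interactions). P-values were Benjamini-Hochberg adjusted over all tested genes and called under 0.05. Correlations used 100000 permutations (SciPy 1.17.1). The fits and the correlation were tested on simulated data. FF alcohol libraries with the same number deviated from their group means together (r from 0.16 to 0.36), so the fit with the number as block is given for them.

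The members and lists were chosen with earlier results of these data known. All 10 members were named; from other lists, at most 4 called genes per comparison, and for likeness to Lcn2 the 5 highest correlations among named protein-coding genes whose mean was at least 5 CPM (1 gene is not reported here). Afp and Gpc3 were read to describe libraries that stood apart. Alternatives were another pseudocount, filter and scaling, summed copies, 2-group fits, the block and each library left out.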

Additional observations from a re-analysis of the deposited data

Results flagged for a closer look

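In 40 groups of 4 libraries (10 genes in 4 alcohol groups), 4 held a library whose gap to its nearest neighbour in CPM exceeded Dixon's 95% limit. Chance gives about 2 where values are normally distributed. All 4 flagged values were the highest of their group, and the check was not run on the log scale of the other tests. Saa1 in dHEP alcohol non-tumor liver was at 264 CPM in dHEP-549, with the other 3 libraries at 60.3 to 70.8 CPM. Orm2 was at 58.2 CPM in the same library, with the others at 19.0 to 23.5 CPM. Orm2 in FF alcohol tumors was at 65.5 CPM in FF-523, with the others at 4.79 to 11.7 CPM. Lbp in FF alcohol non-tumor liver was at 205 CPM in FF-595, with the others at 95.5 to 110 CPM. The neutrophil marker sum was 15.1 CPM in non-tumor dHEP-549, the highest of its group, and 16.6 CPM in non-tumor FF-595; its part was not tested.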

How the results depend on the processing

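Of the 20 tissue calls among the 10 genes, all held with a pseudocount of 0.5, a mean of at least 5 CPM or median-of-ratios scaling, 17 held with no filter, 14 of 20 in fits of the 2 compared groups (lost were Saa3 in FF alcohol, Crp in dHEP alcohol and Lcn2, Saa3, Orm1 and Lbp in dHEP chow), and 4 of 6 in FF alcohol without non-tumor FF-523 and FF-581 (Saa3 and Orm1 lost). The 2-group fits also gained calls by limma, all lower in tumors. These were Saa1 (adjusted p = 0.041) and Saa3 (0.0072) in FF chow and Orm1 (0.049) in dHEP alcohol. With copies summed, the 14 calls of genes outside the sums all held, which does not test the Orm1 and Orm3 calls. The sum Orm1+Orm2+Orm3 was called lower in FF alcohol and dHEP chow (limma adjusted p = 0.034 and 0.049). It was not called in dHEP alcohol (0.20) or FF chow (0.28), where Orm3 alone was. Lost without a filter were Lcn2 in FF alcohol (adjusted p = 0.054), Saa3 and Orm1 in dHEP chow (0.065 and 0.059), all by limma. The number of genes called ranged over left-out libraries from 3 to 7 in FF alcohol, 2 to 4 in dHEP alcohol and 3 to 7 in dHEP chow, and was 2 in dHEP chow with the 2 compared groups only. Over left-out libraries Hp ran from -0.31 to 0.14 (FF alcohol), -0.24 to 0.33 (dHEP alcohol), -0.11 to 0.63 (FF chow) and -0.49 to 0.50 (dHEP chow, -0.05 with median-of-ratios scaling), and Saa2 from -2.37 to 0.25 (dHEP chow). Lcn2 by diet in tumors ran from -0.96 to 0.14 (FF) and -1.80 to 1.45 (dHEP), Crp by genotype on alcohol in non-tumor liver from -0.14 to 0.02, and the non-tumor correlation of Lcn2 with Lbp from -0.03 to 0.33. The tumor correlation of Lcn2 with Saa3 was -0.08 without the 2 farthest libraries. Of 80 genotype and diet differences, 30 changed sign in some of 560 such fits and 0 were called in any (lowest adjusted p 0.054 by limma). The causes were not tested. With the replicate block, whose numbers were not shown to pair the dHEP libraries, 6 genes were called in dHEP alcohol, beside 12.8% of all (Saa1 0.024, Saa2 0.026 and Orm1 0.031 gained, Crp 0.11 lost; 2 of 4 libraries correlated best with their own number) and 5 in dHEP chow, beside 17.2% of all (Orm1 0.099 lost; 3 of 3). No paired analysis was possible for FF chow because its numbers differ between tissues.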
